A study of Mus musculus with 6 samples.

Results

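The genes described here are those of the interleukin 1 (IL-1) system and the inflammasome in monocytic myeloid-derived suppressor cells (M-MDSCs). They were chosen by gene name, and all 10 were found among the 34745 genes of the deposited count table: Il1a, Il1b, Il18, Il1rn, Il1r2, Nlrp3, Pycard, Casp1, Casp4 and Gsdmd. RNA was sequenced from 3 libraries labelled mTOR-/- and 3 labelled WT, all from mice given as C57BL/6, with bone marrow as the source. The mTOR-/- mice carried mTOR flox/flox and Lyz-Cre, so the deletion is limited to cells that express the lysozyme promoter, while the control mice are described only as WT. Bone marrow was cultured with GM-CSF and IL-6 and the CD11b+Ly6G-Ly6Chigh cells were sorted before RNA extraction, and both groups shared this treatment. The age of the mice is not given in the sources used here. The methods give n = 3 for the mice, and the labels do not tie libraries to mice or cultures. The p-values measure the spread between these libraries.

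IL-1 alpha and IL-1 beta are inflammatory cytokines of myeloid cells that bind the same receptor, IL1R1. Their action is held back by IL1RN, an antagonist that occupies this receptor, and by IL1R2, a decoy receptor that binds IL-1 and does not signal. IL-1 beta and IL-18 are made as inactive precursors. A sensor such as NLRP3 joins the adaptor ASC (the product of Pycard) and activates caspase-1, which cuts both precursors and also gasdermin D, whose fragment forms pores in the membrane. RNA levels describe only the supply of these proteins, since the cutting steps occur on protein.

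Total counts lay between 12317507 and 14768126 per library, and the count of Mtor did not separate the groups. Mtor had 883, 983 and 908 counts with mTOR-/- against 980, 875 and 929 with WT (log2 fold change 0.15, adjusted p = 0.442, edgeR), so mTOR-/- below stands for the libraries labelled so. These counts cover the whole gene, and reads over its floxed part were not counted apart. The paper reports in a supplementary figure that the loss of mTOR in MDSCs was checked. Itgam (CD11b) was at 116 FPKM in the mTOR-/- libraries and 128 FPKM in the WT libraries, and its difference did not pass the test (log2 fold change -0.16, adjusted p = 0.599, edgeR). The 8 lymphocyte markers summed to at most 5.58 CPM in any library: Cd3e and Ncr1 had 0 counts in all 6, while Nkg7 had 9 to 53 counts and Klrb1c had 0 in each mTOR-/- library and 7 to 11 in the WT libraries. Of the markers that define the sort, Ly6c2 fell to 0.5 times the WT level (adjusted p = 0.0426, edgeR) and Ly6g, which the sort should leave out, rose (log2 fold change 2.26, adjusted p = 0.0365, edgeR). Ly6g counts were 173, 139 and 198 against 12, 35 and 71. The summed level of 6 mast cell and basophil markers lay at 420 to 474 with mTOR-/- and at 1240 to 1310 with WT in CPM, the unit that relates a count to the TMM-adjusted size of its library. In bulk RNA, fewer cells of a type and less RNA per cell cannot be told apart.

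Il1b rose in the mTOR-/- libraries and was the only one of the 10 genes to pass both thresholds of the study, which ask for at least a 2-fold change and for an adjusted p below 0.05 (here from the quasi-likelihood test of edgeR). Nlrp3 rose by less than that. For Il1a, Il1rn, Il1r2, Pycard, Casp1, Casp4 and Gsdmd the difference did not pass the test, and Il18 had too few counts to be tested. Of the 9 genes tested, 1 passed both thresholds, where 1.69% of all 12537 tested genes did. At an adjusted p under 0.05 alone it was 2 of 9, against 4.04% of all genes. For the other rules used below, the shares over all tested genes were 21.2% at an unadjusted p under 0.05 (edgeR), and at an adjusted p under 0.05 they were 9.13% with DESeq2 and 8.05% with edgeR's exact test. The median log2 fold change was 0.08 over the 9 genes and 0.005 over all tested genes. The libraries of the groups did not overlap for 5 of the 9 genes, 4 higher and 1 lower with mTOR-/-. Over all tested genes this was so for 28.4%, 14.5% higher and 13.9% lower.

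**Figure D1:**
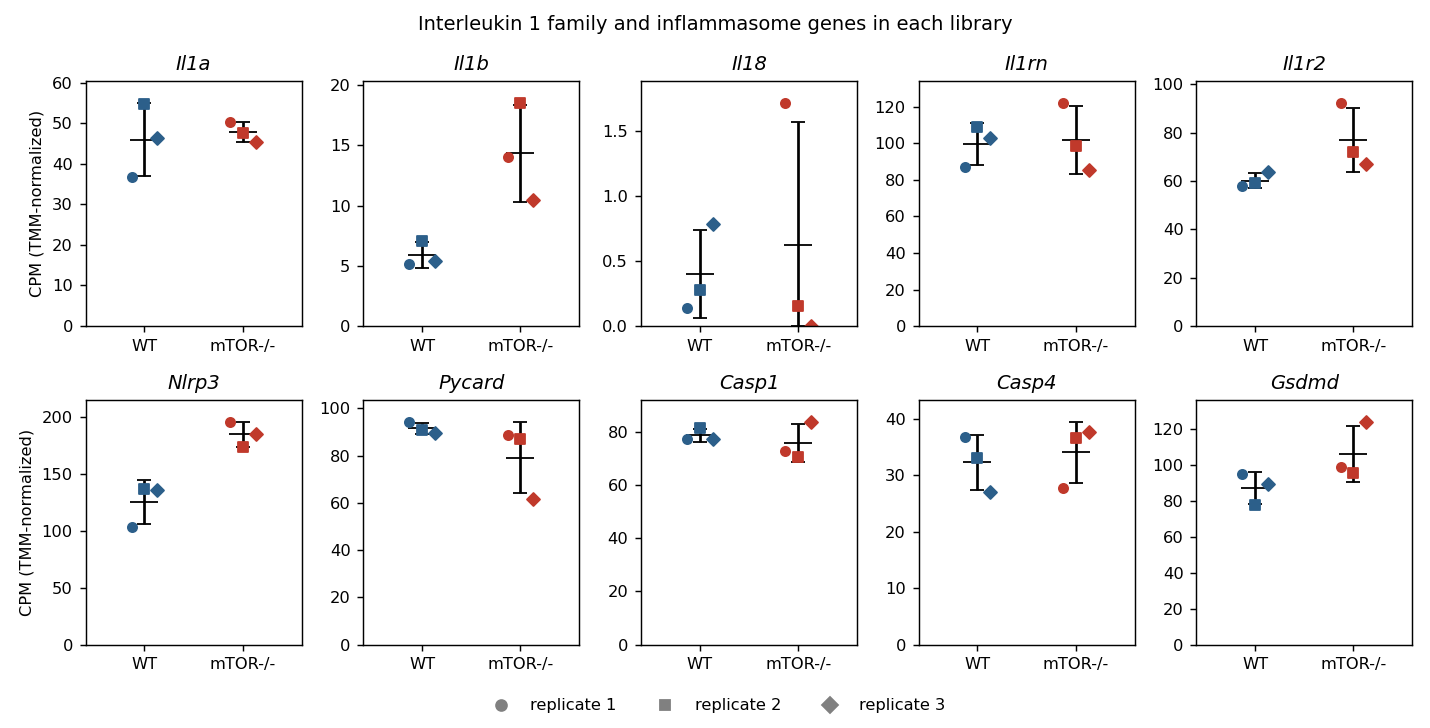
Level of each of the 10 genes in each library (vertical axis, TMM-normalized CPM on a linear scale from 0), with points for the 3 WT (blue) and 3 mTOR-/- (red) libraries and bars for the mean ± SD, cut at 0. The groups lie apart for Il1b and Nlrp3, by a narrow margin for Il1r2, Gsdmd and Pycard, and overlap for the other genes.

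Il1b (ENSMUSG00000027398) is a gene of chromosome 2 (reverse strand, 129364570 to 129371139, GRCm38). It had 172, 240 and 138 counts with mTOR-/- against 72, 104 and 76 with WT. Every mTOR-/- library was above every WT library, and mTOR-/- replicate 3 was the closest to the WT range. The level was 14.4 ± 3.99 CPM (SD, n = 3) against 5.87 ± 1.07 CPM (SD, n = 3), 2.44-fold higher. The log2 fold change was 1.29 (standard error (SE) 0.26, 95% interval 0.70 to 1.87, edgeR adjusted p = 0.029). DESeq2 gave an adjusted p of 0.000601 for the same gene, and edgeR's exact test 0.000415.
Of the 6 fits that left out 1 library, 1 kept the call. Without mTOR-/- replicate 3 the log2 fold change was 1.46 (adjusted p = 0.0138, edgeR). Without any other library it stayed positive and the adjusted p rose above 0.05: 0.0767 without mTOR-/- replicate 1, 0.0668 without mTOR-/- replicate 2, 0.122 without WT replicate 1, 0.0601 without WT replicate 2 and 0.132 without WT replicate 3. Il1bos, an antisense gene that overlaps Il1b on the other strand, had at most 17 counts in any library, and the strand setting of the counting is not given in the sources used here.

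Il1a (ENSMUSG00000027399, chromosome 2, 129299610 to 129309972) lies on the same strand, with 54597 bases between the genes. It encodes IL-1 alpha, which binds the same receptor as IL-1 beta and is active without the caspase-1 cut. Its counts were 619, 618 and 595 with mTOR-/- against 518, 802 and 654 with WT. The mTOR-/- values lay inside the WT range, and the log2 fold change was 0.06 (95% interval -0.29 to 0.40, adjusted p = 0.869, edgeR). Leaving out WT replicate 1, the lowest, turned it to -0.09.

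The upstream sequences of Il1b and Il1a are shown because Il1b rose while its neighbour did not pass the test, and that of Nlrp3 because it was the other member that rose. They are the 250 bases before the RefSeq start site on GRCm38.p6, read 5′ to 3′ on the strand of the gene, at chr2:129371140-129371389 (reverse strand), chr2:129309973-129310222 (reverse strand) and chr11:59541319-59541568 (forward strand). Of the pair of starts listed for Nlrp3, the one that adjoins the deposited gene model is printed. Capitals mark matches, on either strand, to TATAAA (the TATA box) or to GGGNNNNNCC, a loose form of the kappa B site.
Il1b: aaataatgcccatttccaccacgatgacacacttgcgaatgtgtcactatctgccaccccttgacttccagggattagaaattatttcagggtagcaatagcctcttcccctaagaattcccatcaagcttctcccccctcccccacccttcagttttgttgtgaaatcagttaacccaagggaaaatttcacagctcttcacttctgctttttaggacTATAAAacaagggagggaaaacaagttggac
Il1a: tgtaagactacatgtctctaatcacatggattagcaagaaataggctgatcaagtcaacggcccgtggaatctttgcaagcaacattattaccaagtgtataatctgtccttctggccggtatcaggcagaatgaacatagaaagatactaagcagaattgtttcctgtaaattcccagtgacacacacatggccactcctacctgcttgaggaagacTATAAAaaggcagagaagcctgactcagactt
Nlrp3: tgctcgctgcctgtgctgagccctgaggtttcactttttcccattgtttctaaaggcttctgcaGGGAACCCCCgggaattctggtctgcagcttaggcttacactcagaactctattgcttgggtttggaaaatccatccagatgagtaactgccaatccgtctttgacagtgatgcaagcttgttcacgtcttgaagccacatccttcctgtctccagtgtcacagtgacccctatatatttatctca

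The TATA box letters lay 31 to 26 bases before the start of Il1b and 32 to 27 bases before the start of Il1a. Both neighbours thus carry them at nearly the same place. These letters occur in 12.4% of 32851 upstream windows of the same length. Among the 9 of the 10 genes with an upstream sequence in the table, 3 held TATAAA, the other being Il18. In Il18 the match lay on the opposite strand, 175 to 170 bases before the start, unlike in Il1b and Il1a. The loose kappa B form was found in 4, Il1rn, Nlrp3, Casp1 and Casp4. Some genes have several start sites, and counted by window, as the shares over all windows are, TATAAA was in 3 of the 13 windows of these genes and the kappa B form in 6 of 13, against 45.8% of all windows. A match describes letters in this window and does not show a site in use.

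Il18 (ENSMUSG00000039217, chromosome 9) encodes IL-18, the other cytokine precursor that caspase-1 cuts. It had 21, 2 and 0 counts with mTOR-/- against 2, 4 and 11 with WT, so 1 library of each group stood above the rest and the groups overlapped. A floor of 3 counts is 0.203 to 0.244 CPM in these libraries, and 3 of the 6 values lay below 3 counts. Without a filter on low counts the log2 fold change was 0.61 with a standard error of 1.42 (adjusted p = 0.854, edgeR), so no difference was detectable at this depth. The deposited gene model starts at 50575273, while GENCODE M21 starts the gene at 50554827, and reads over the exons upstream would not enter this count.

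The natural inhibitors of IL-1 were abundant in both groups. Il1rn (ENSMUSG00000026981, chromosome 2, 24336853 to 24351494), the receptor antagonist, had 1504, 1277 and 1119 counts with mTOR-/- against 1226, 1604 and 1445 with WT. The groups overlapped, and the log2 fold change was 0.03 (95% interval -0.30 to 0.36, adjusted p = 0.924, edgeR). Its sign turned to -0.12 without mTOR-/- replicate 1 and to -0.06 without WT replicate 1. Il1r2 (ENSMUSG00000026073, chromosome 1, 40074079 to 40125231), the decoy receptor, had 1131, 931 and 875 counts with mTOR-/- against 815, 865 and 892 with WT. In CPM the groups lay narrowly apart, at 66.9 to 92.1 against 57.9 to 63.5, and the log2 fold change was 0.36 (95% interval 0.05 to 0.66, adjusted p = 0.174, edgeR). Gm37347, which overlaps Il1r2 on the same strand, had at most 28 counts.

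Ratios within a library do not depend on how the libraries are scaled. Il1rn counts were 8.74, 5.32 and 8.11 times Il1b counts in the mTOR-/- libraries and 17.0, 15.4 and 19.0 times in the WT libraries. Counts of the antagonist thus exceeded those of Il1b in all 6 libraries. The ratio was 2.37-fold lower in mTOR-/- (7.39 ± 1.82 against 17.2 ± 1.80, SD, n = 3, two-sided exact permutation p = 0.1, which 3 against 3 cannot go below). Counts also grow with transcript length, and the deposited FPKM values imply 8102 bases for Il1rn and 2352 for Il1b. Per length the excess was smaller. Mean FPKM of Il1rn and Il1b was 12.7 and 6.14 with mTOR-/-, and 12.2 and 2.48 with WT. The ratio of Il1a to Il1b was 3.60, 2.58 and 4.31 with mTOR-/- against 7.19, 7.71 and 8.61 with WT. It was 2.29-fold lower in mTOR-/- (two-sided exact permutation p = 0.1, again the lowest possible). Both ratios have Il1b as the divisor, so they are not independent of its fold change. The ratio of the decoy Il1r2 to the signalling receptor Il1r1, chosen after the values were seen and not tested, was 7.85, 8.39 and 13.3 with mTOR-/- against 5.19, 4.63 and 3.76 with WT.

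Among the inflammasome parts, the sensor gene Nlrp3 (ENSMUSG00000032691, chromosome 11, 59541568 to 59566956) rose. NLRP3 responds to a wide range of danger signals, and its transcription is part of the priming of the inflammasome. It had 2412, 2261 and 2424 counts with mTOR-/- against 1450, 2002 and 1909 with WT. All mTOR-/- libraries were above all WT libraries, at 185 ± 11 CPM (SD, n = 3) against 125 ± 19.2 CPM (SD, n = 3), and WT replicate 1 was the lowest. The log2 fold change was 0.57 (SE 0.12, adjusted p = 0.0367, edgeR), a 1.48-fold difference that is below the fold threshold. Each fit that left out 1 library gave an adjusted p above 0.05, from 0.0548 without mTOR-/- replicate 2 to 0.112 without WT replicate 1. The others were 0.103 and 0.0605 without mTOR-/- replicates 1 and 3, and 0.0757 and 0.0977 without WT replicates 2 and 3.

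The adaptor, the caspases and the pore protein did not pass the test. Pycard (ENSMUSG00000030793, chromosome 7, 127989708 to 127993867), which encodes ASC, had 1091, 1128 and 808 counts with mTOR-/- against 1327, 1333 and 1260 with WT. Its log2 fold change of -0.21 (adjusted p = 0.429, edgeR) rested on mTOR-/- replicate 3, without which it was -0.07. Casp1 (ENSMUSG00000025888, chromosome 9, 5298517 to 5307265), the protease of the inflammasome, had 893, 916 and 1097 counts against 1091, 1195 and 1085. The groups overlapped in CPM, and the log2 fold change was -0.06 (95% interval -0.29 to 0.18, adjusted p = 0.804, edgeR).
Casp4 (ENSMUSG00000033538), which lies 1562 bases after Casp1 on the same strand, encodes the caspase that responds to lipopolysaccharide inside the cell. It had 341, 475 and 493 counts with mTOR-/- against 517, 484 and 381 with WT. The groups overlapped, and the log2 fold change of 0.08 (95% interval -0.31 to 0.46, adjusted p = 0.837, edgeR) turned to -0.01 without mTOR-/- replicate 3 and to -0.04 without WT replicate 3. Gsdmd (ENSMUSG00000022575, chromosome 15, 75862339 to 75867404), the gasdermin that caspases cut, had 1217, 1237 and 1627 counts against 1333, 1137 and 1255. In CPM the groups were just apart, at 95.4 to 124 against 77.6 to 94.7, and the log2 fold change was 0.29 (95% interval -0.01 to 0.58, adjusted p = 0.245, edgeR). Without mTOR-/- replicate 3, the highest library, it was 0.15.

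**Figure D2:**
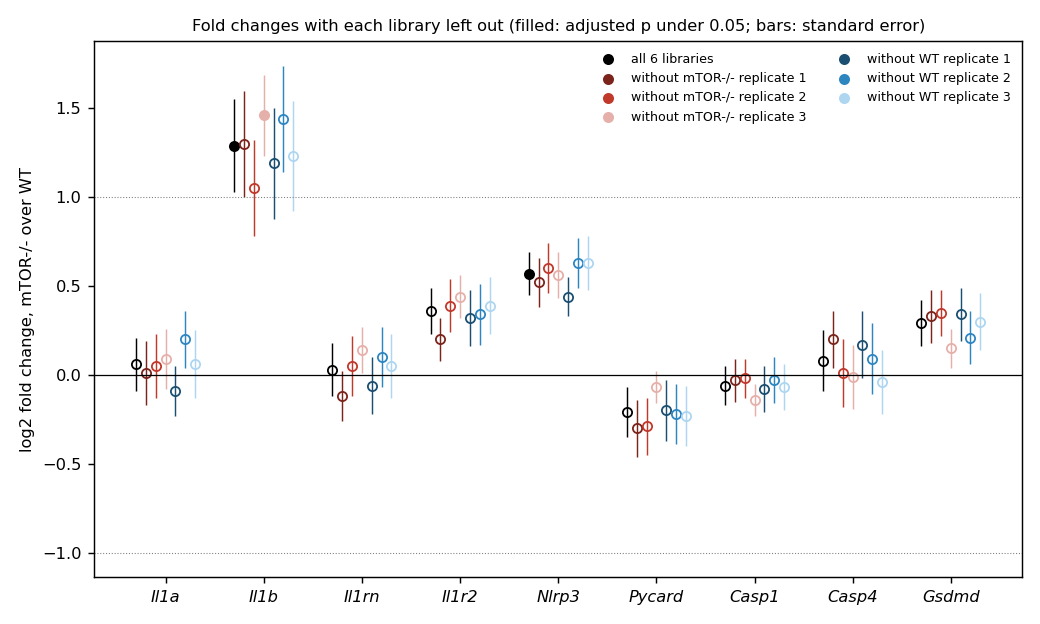
Log2 fold change of the 9 tested genes (vertical axis, mTOR-/- over WT, bars for the standard error) from all 6 libraries in black and with each library left out in colour; filled points have an adjusted p under 0.05. Il1b lies between 1.05 and 1.46 and Nlrp3 between 0.44 and 0.63 with a library left out, while Il1a, Il1rn and Casp4 fall on both sides of 0.

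Levels of different genes were compared per length with the deposited FPKM values. In the WT libraries the order of the mean FPKM was Casp1 (52.2), Gsdmd (48.8), Il1r2 (25.5), Nlrp3 (24.1), Il1a (23.1), Pycard (21.5), Il1rn (12.2), Casp4 (6.62), Il1b (2.48) and Il18 (0.553). The libraries of Casp1 and Gsdmd overlapped, and so did each neighbouring pair from Il1r2 to Pycard. Below these, every step of the order was larger than the spread between WT libraries. In the mTOR-/- libraries the mean FPKM of Nlrp3 (36.2) was above that of Il1r2 (33.0), and that of Gsdmd (60.3) above that of Casp1 (51.0), but in both pairs the libraries overlapped. Il1b stayed ninth at 6.14 FPKM, where its libraries overlapped those of Casp4 (7.08), and those of Pycard (18.8) overlapped those of Il1rn (12.7). The transcripts of the caspase-1 and gasdermin machinery were thus present at higher levels per length than the cytokine transcript Il1b in both groups. The FPKM values imply a length of 8102 bases for Il1rn, against 5535 bases for its exons in GENCODE M21. With the GENCODE lengths Pycard and Il1a changed places and no other gene of the WT order moved.

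Beyond the 10 genes, 70 others of the pathway were read from lists grouped by role, and 63 of them were tested. Of these, 7 rose and 2 fell at an adjusted p under 0.05, where 2.18% and 1.87% of all tested genes did. With the fold threshold added, 2 rose and 1 fell, against 1.04% and 0.654%. Their median log2 fold change was 0.13.

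Among the 4 agonist ligands tested, Il33 and Il36g did not pass the main test, and the call depended on the tool. At an adjusted p under 0.05 edgeR's quasi-likelihood test called 1 of the 4, DESeq2 2 and edgeR's exact test 3. Over all tested genes the shares were 4.04%, 9.13% and 8.05% in the same order. Il33, an alarmin of the IL-1 family, had 13, 26 and 22 counts with mTOR-/- against 2, 5 and 9 with WT (log2 fold change 2.05, SE 0.67, adjusted p = 0.129, edgeR). Its adjusted p was 0.0887 with DESeq2 and 0.0231 with the exact test. Il36g, a cytokine that signals through IL1RL2, had 880, 719 and 1220 counts against 656, 684 and 624 (log2 fold change 0.68, adjusted p = 0.0634, edgeR). Its adjusted p was 0.00743 with DESeq2 and 0.013 with the exact test. Both were higher in every mTOR-/- library than in every WT library. Il36a, Il36b, Il1f10 and Il36rn had 0 counts in all libraries.

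Of 6 signalling receptors, Il1rl1 fell at an adjusted p under 0.05, where 1.87% of all tested genes did. The other 5 did not pass the test. Il1rl1 encodes ST2, the receptor of IL-33, which mast cells and basophils carry. It had 57, 103 and 124 counts with mTOR-/- against 258, 245 and 194 with WT. All WT libraries were above all mTOR-/- libraries, at 16.3 ± 2.29 CPM (SD, n = 3) against 7.35 ± 2.47 CPM (SD, n = 3). The log2 fold change was -1.14 (SE 0.27, adjusted p = 0.0477, edgeR). It was called only without mTOR-/- replicate 3 among the fits with a library left out (adjusted p = 0.0301). The other 5 gave 0.0858 and 0.072 without mTOR-/- replicates 1 and 2, and 0.169, 0.133 and 0.11 without WT replicates 1, 2 and 3.
Markers of mast cells and basophils were read beside it. At an adjusted p under 0.05, 1.87% of all tested genes fell. Of the 6 listed, 4 fell: Cpa3, a mast cell protease, with a log2 fold change of -2.37 (adjusted p = 9.53e-05), Mcpt8, a basophil protease, with -1.09 (adjusted p = 0.0353), the transcription factor Gata2 with -0.79 (adjusted p = 0.00973) and Kit, the stem cell factor receptor, with -1.05 (adjusted p = 0.00139). Ms4a2 and Fcer1a, which encode chains of the IgE receptor, did not pass the test and pointed opposite ways. Their log2 fold changes were -0.65 (adjusted p = 0.457, edgeR) and 0.45 (adjusted p = 0.61, edgeR). None of the 6 was at 0 counts. The part of these cells in the Il1rl1 result was not tested. Il1r1, the receptor of both IL-1 cytokines, had 144, 111 and 66 counts with mTOR-/- against 157, 187 and 237 with WT. Its log2 fold change was -0.69 (95% interval -1.38 to 0.00, adjusted p = 0.236, edgeR) and the groups overlapped in CPM.

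**Figure D3:**
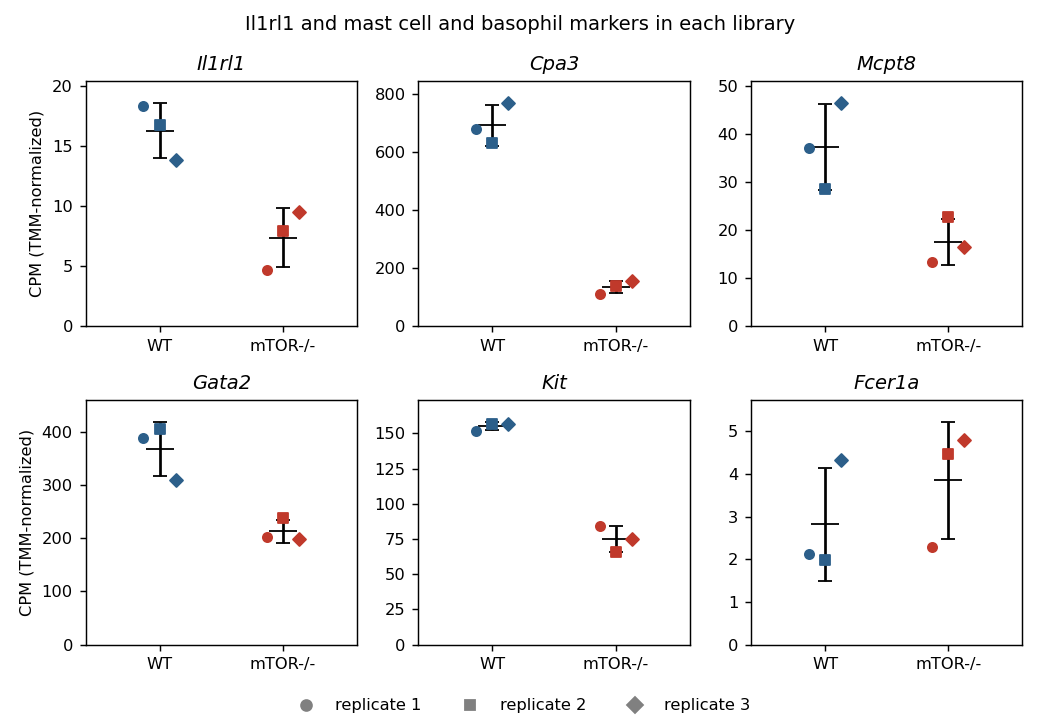
Level of Il1rl1 and of 5 of the 6 mast cell and basophil markers in each library (vertical axes, TMM-normalized CPM from 0; points for libraries, bars for the mean ± SD, n = 3). Il1rl1, Cpa3, Mcpt8, Gata2 and Kit are lower in all mTOR-/- libraries than in all WT libraries, and Fcer1a overlaps.

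The adaptors and kinases downstream of these receptors, Myd88, the Irak genes, Traf6 and others, held 15 tested genes. At an adjusted p under 0.05 edgeR called 0 of them, as did DESeq2 and edgeR's exact test, and 2 of 15 had an unadjusted p under 0.05, where 21.2% of all tested genes did. Their median log2 fold change was 0.07.

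The inflammasome sensors held 4 of the 11 changes found over all 8 pathway lists. Of 11 sensors tested, 4 rose and 0 fell, where 2.18% and 1.87% of all tested genes did. This list, like the 10 genes and the other lists, was chosen with earlier results of these data known. The shares thus describe the list and do not test it. An unadjusted p under 0.05 was found for 7 of 11, against 21.2% of all genes (edgeR). DESeq2 called 5 of them in either direction, against 9.13% of all genes. The added one was Naip2, which was lower (log2 fold change -0.33, adjusted p = 0.0405, DESeq2). With edgeR's exact test 4 were called, against 8.05% of all genes. Besides Nlrp3 the sensors that rose were Nlrp1b, Nlrc4 and Mefv, and the median log2 fold change of the list was 0.48. Nlrp1b, a sensor that anthrax lethal factor activates in some mouse strains, had 98, 99 and 112 counts with mTOR-/- against 8, 20 and 5 with WT, 10.4-fold higher (log2 fold change 3.38, SE 0.47, adjusted p = 0.00523, edgeR). It was called in all 6 fits that left out 1 library, with a fold of 17.1 without WT replicate 2, its highest WT library, and of 8.23 to 10.6 in the other 5. Nlrp1b has close copies, among them Nlrp1a, so the division of reads between them is uncertain. Nlrp1a had 1, 24 and 26 counts against 36, 44 and 26 (log2 fold change -0.91, adjusted p = 0.534, edgeR).
Nlrc4, which the NAIP proteins engage when they bind bacterial flagellin or secretion system parts, had 295, 309 and 437 counts with mTOR-/- against 195, 215 and 203 with WT. Its log2 fold change was 0.92 (SE 0.17, adjusted p = 0.0223, edgeR), just under the fold threshold, and the adjusted p was 0.0993, 0.08 and 0.0989 without WT replicates 1, 2 and 3. Mefv, which encodes pyrin, the sensor of inactivated RhoA, had 297, 305 and 512 counts against 221, 196 and 184 (log2 fold change 1.04, SE 0.22, adjusted p = 0.0325, edgeR). The adjusted p of Mefv was above 0.05 without mTOR-/- replicate 1 (0.0545) and without WT replicates 1, 2 and 3 (0.0923, 0.113 and 0.145). Without mTOR-/- replicate 3, its highest library, the log2 fold change fell to 0.76, under the fold threshold. The Naip genes did not pass edgeR's test and pointed both ways, with log2 fold changes of -0.33 for Naip2 (adjusted p = 0.0937) and 0.48 for Naip5 (adjusted p = 0.142), and as near-identical copies their reads can be split. Aim2, a sensor of cytosolic DNA, had a log2 fold change of 0.43 (adjusted p = 0.16).

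**Figure D4:**
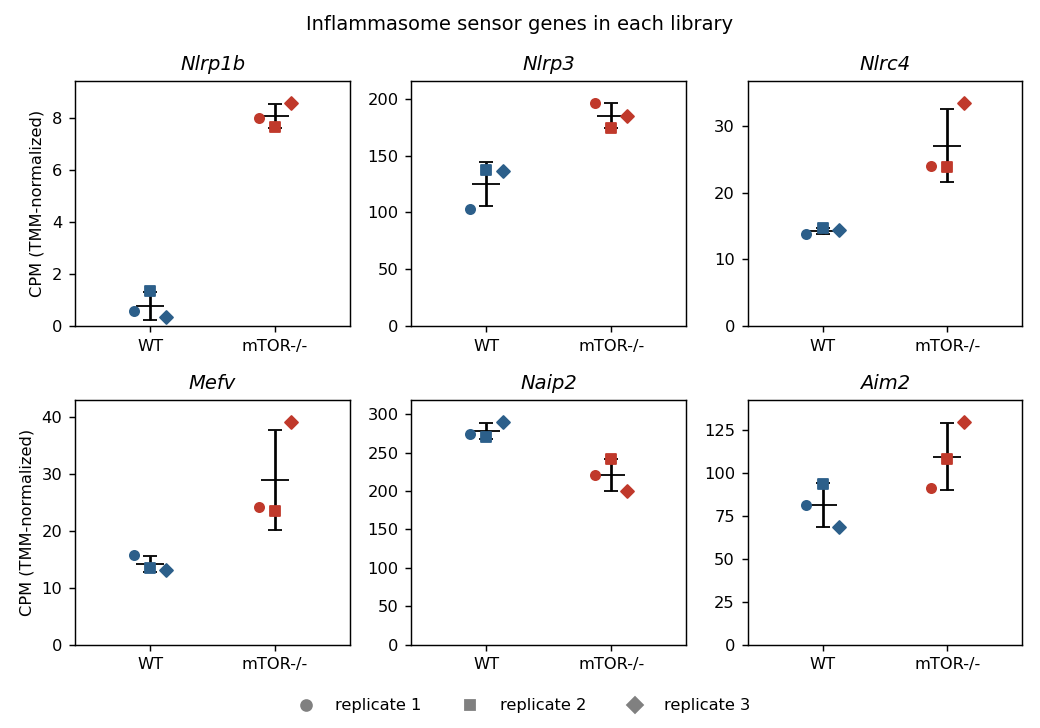
Level of 6 inflammasome sensor genes in each library (vertical axes, TMM-normalized CPM from 0; points for libraries, bars for the mean ± SD, n = 3). Nlrp1b is near 0 in the WT libraries, at 0.763 CPM on average, and at 8.06 CPM in the mTOR-/- libraries, while Naip2 lies lower in mTOR-/- and Aim2 overlaps.

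Of the 8 genes in the list of the adaptor and its regulators, Txnip rose at an adjusted p under 0.05, where 2.18% of all tested genes did. The product of Txnip binds thioredoxin and NLRP3. Txnip had 1679, 1534 and 1805 counts with mTOR-/- against 1124, 1277 and 983 with WT (log2 fold change 0.73, adjusted p = 0.00994, edgeR). Its adjusted p was 0.0518 and 0.055 without WT replicates 1 and 3. Of 6 tested caspases and pore proteins edgeR called 0 at an adjusted p under 0.05, as did DESeq2 and edgeR's exact test, and 1 of 6 had an unadjusted p under 0.05, where 21.2% of all tested genes did.

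Genes known to be induced by IL-1 and NF-kB numbered 18, of which 3 rose and 1 fell, against 2.18% and 1.87% of all tested genes. DESeq2 and edgeR's exact test each called 7 in either direction, against 9.13% and 8.05% of all genes. The added 3 were Cxcl2, Nfkb2 and Icam1 with both tools. Nfkbia, which encodes the inhibitor of NF-kB that this pathway induces itself, had a log2 fold change of 0.78 (adjusted p = 0.00692, edgeR) and an adjusted p under 0.05 in all 6 fits that left out 1 library. Nfkbiz, a nuclear cofactor of NF-kB, had a log2 fold change of 0.77 (adjusted p = 0.027), and Ptgs2, which encodes cyclooxygenase-2, had 0.56 (adjusted p = 0.0464), both edgeR. Ccl4, a chemokine of macrophages, fell (log2 fold change -0.72, adjusted p = 0.0324). Each of Nfkbiz, Ptgs2 and Ccl4 kept an adjusted p under 0.05 in 1 of the 6 fits. All 4 changes were below the fold threshold. Il6 (adjusted p = 0.352) and Tnf (adjusted p = 0.662) did not pass the test.

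**Figure D5:**
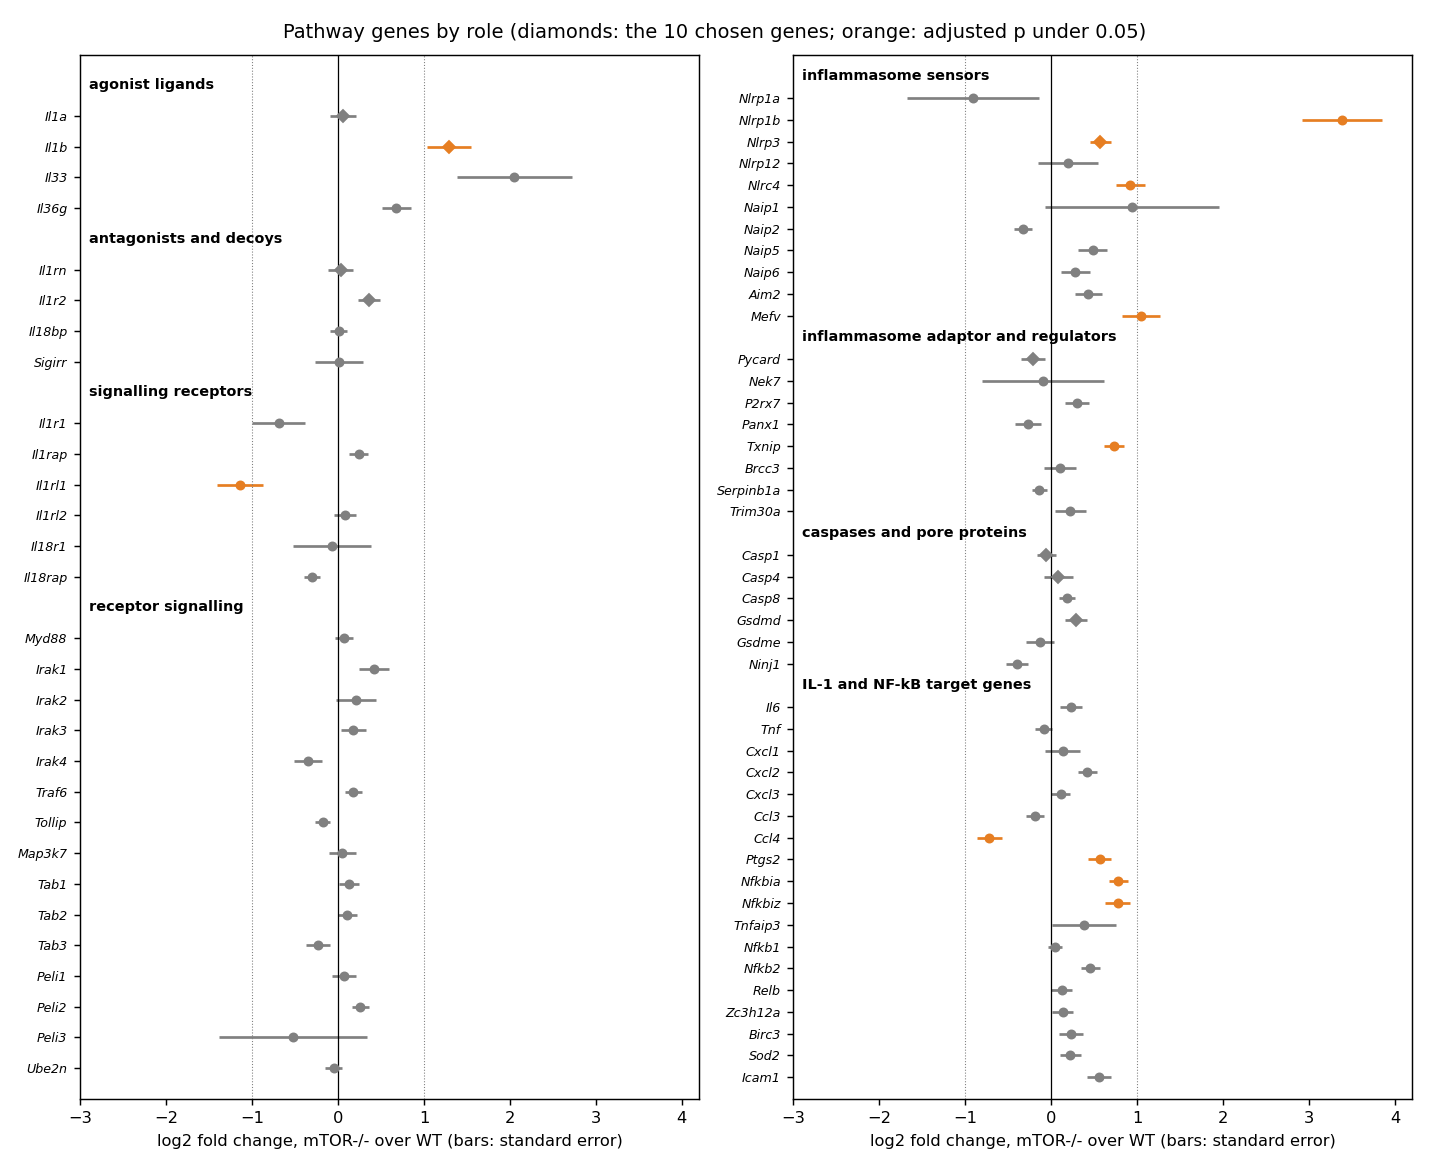
Log2 fold change of every tested gene of the 8 pathway lists (horizontal axis, mTOR-/- over WT, bars for the standard error; dotted lines at a fold change of 2), grouped by role, with diamonds for the 9 chosen genes that were tested and orange for an adjusted p under 0.05. The orange points lie mainly among the sensors and target genes, and no point of receptor signalling or of the caspases and pore proteins is orange.

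Other cell type markers also differed between the groups. Single markers are given as higher or lower at an adjusted p under 0.05, where 2.18% of all tested genes were higher and 1.87% lower. The summed level of 11 neutrophil markers was 2590 to 2920 CPM with mTOR-/- and 2260 to 2590 CPM with WT. The largest part of this sum was Mmp8, named after its values were seen. It was at 1560 against 1240 CPM on average and did not pass the test (adjusted p = 0.18, edgeR). At an adjusted p under 0.05, Ly6g, S100a8 and Csf3r were higher and Ltf and Ngp lower. Neutrophils are known to carry Il1b and Il1r2, and the part of neutrophils in these levels was not tested. The 8 dendritic cell markers summed to 195 to 266 CPM against 69.4 to 154 CPM. Of the 5 that could be tested, Ccr7 was higher (log2 fold change 1.26, adjusted p = 0.0314, edgeR) and 4 did not pass the test. Among these was Itgax, the largest part of the sum and also named after its values were seen. Its mean was 172 against 90.7 CPM (adjusted p = 0.0987, edgeR). Siglech was at 0 in all libraries. The 8 macrophage markers summed to 743 to 918 CPM against 945 to 1060 CPM, and none of the 6 that could be tested passed at an adjusted p under 0.05. The 8 monocyte markers summed to 1380 to 1820 CPM against 1450 to 1620 CPM, with Csf1r, Cd14 and F13a1 higher and Ly6c2 lower. Of 5 immature granulocyte markers, Ctsg fell (log2 fold change -1.39) and the other 4 did not pass the test, with values of both signs, such as 0.39 for Elane and -0.38 for Mpo. Of 3 eosinophil markers tested, Prg2 fell (log2 fold change -1.09) and Epx and Siglecf did not pass the test. The part of these shifts in the levels of Il1b and the sensors was not tested.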

How the data were processed

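RNA of 6 libraries of sorted M-MDSCs was compared. The authors deposited raw read counts, as whole numbers for each gene, and FPKM values; the methods text names Bowtie2, HTSeq and mm10, while the submitters' processing notes list HISAT2 2.0.4, StringTie 1.3.0, GRCm38.p4 and mm9. Strand setting and annotation release are not given in the sources used here. The deposited FPKM values equal the counts divided by the library total and a fixed length per gene. They served to compare levels between genes, to give the level of Itgam, and as an alternative input for the ratios of Il1rn and Il1a to Il1b. Of 36 columns of per-sample values 24 repeat these and were not used, nor were the authors' own fold changes and p-values. Positions come from the deposited table, and 8 of the 10 genes have the same start and end in GENCODE M21.

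Counts were analysed in R 4.3.3 with edgeR 4.0.16 and DESeq2 1.42.0. filterByExpr (at least 10 counts, 15 in total) kept 12537 genes, and TMM factors were 0.986 to 1.01. Standard errors and 95% intervals come from the edgeR quasi-likelihood fit, and p-values were adjusted over all tested genes by the Benjamini-Hochberg method. CPM are TMM-normalized. Fold changes are mTOR-/- over WT. The procedure was also run on counts simulated from the model fitted to these data, with changes larger than that of Il1b. Such a run checks the working of the procedure and cannot show how well the model describes these libraries. The 10 genes and all lists were chosen with earlier results of these data known. Named genes are the 10, Mtor, every listed pathway gene with an adjusted p under 0.05, and the markers past both thresholds or at 0; other genes named with values, among them Il33, Il36g, Il1r1, Nlrp1a, Naip2, Naip5, Aim2, Il6, Tnf, Cxcl2, Nfkb2, Icam1, Csf1r, Cd14, Gata2, Fcer1a, Ms4a2, Ly6c2, S100a8, Csf3r, Ngp, Elane, Mpo, Epx, Siglecf, Nkg7 and Klrb1c, were named after their values were seen. Intervals cover the spread between libraries, and floors cover counting error only. Alternatives were other tests, normalizations, filters and thresholds, each library left out, and the replicate number as a block.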

Additional observations from a re-analysis of the deposited data

How the results depend on the processing

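The number of chosen genes called was 1 (higher) in all alternatives that used all 6 libraries, except 2 (both higher) without the fold change threshold, and it was 0 to 1 with a library left out. Called pathway genes numbered 4, 3 higher and 1 lower. Without the fold threshold there were 11 (9 and 2), with edgeR's exact test 5 (4 and 1, Il33 added), with a minimum of 10 counts in all 6 libraries 3, with the replicate block 2 (0 lower), and with a library left out 1 to 3 (1 to 2 higher, 0 to 1 lower). All genes called numbered 212 (130 and 82), with DESeq2 357 (220 and 137), with edgeR's exact test 386 (244 and 142), without the fold threshold 507 (273 and 234), and with a library left out 114 to 229 (61 to 132 higher, 51 to 97 lower). With a library left out, the log2 fold change was -0.09 to 0.20 for Il1a (negative without WT replicate 1), -0.12 to 0.14 for Il1rn (-0.12 and -0.06 without mTOR-/- replicate 1 and WT replicate 1) and -0.04 to 0.20 for Casp4 (-0.01 and -0.04 without mTOR-/- replicate 3 and WT replicate 3). The other 6 tested members kept their sign in these 6 fits. Fits with fewer libraries also have fewer degrees of freedom.

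Over all tested genes, deviations from the group means of same-numbered libraries correlated at -0.107, -0.0813 and -0.112. Single genes could differ from this, since Nek7 was high in replicate 2 of both groups. Whether same-numbered libraries shared a batch was not tested. With the replicate number as a block, Il1b stayed called (log2 fold change 1.27, adjusted p = 0.0353, edgeR), while Il1rl1 (-1.18, 0.0851) and Mefv (1.01, 0.0577) were not called. The adjusted p rose above 0.05 for Nlrp3 (0.08), Ptgs2 (0.111), Ccl4 (0.0632) and Nfkbiz (0.0524). In the replicate block the ratio of Il1rn to Il1b had a log2 difference of -1.24 and that of Il1a to Il1b -1.19 (exact sign-flip permutation, p = 0.25, the smallest for 3 pairs). A minimum of 10 counts in all 6 libraries removed Nlrp1b from the test.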

Other observations

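Nek7, a kinase that NLRP3 needs for activation, was picked for its spread once the values were known. Its counts were 335, 1941 and 403 with mTOR-/- against 494, 2186 and 538 with WT, so replicate 2 stood far above the other libraries in both groups. The log2 fold change between the groups was -0.10 (adjusted p = 0.955, edgeR), with a standard error of 0.71.

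Lyz2, the lysozyme gene whose promoter names the Cre line, had 11695 to 14675 counts with mTOR-/- and 32743 to 57236 with WT (log2 fold change -1.68, adjusted p = 0.00255, edgeR), also named after its values were seen. Genotyping in the paper used primers named for a mutant and a WT form of Lyz. The part of the Cre allele in the Lyz2 level was not tested.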
